A study of Mus musculus with 12 samples.

Results

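The 6 RNA-seq libraries that carry a plasmid label, of 12 in the series, were divided by the level of a single interferon-induced gene. Ifit1 (chr19:34640871-34650009 on the plus strand of GRCm38), an RNA-binding protein that blocks translation of foreign RNA, was read in each library in FPKM, the number of sequenced fragments scaled to gene length and library size. A library with an Ifit1 FPKM of at least 10 was placed on the high side, and one below 10 on the low side. The high side held 3 libraries, pEGFP-N1 replicates 1 and 3 and BX795 plus pEGFP-N1 replicate 1, with 96.7, 95.2 and 92.6 FPKM. The low side held 3 libraries, pEGFP-N1 replicate 2 and BX795 plus pEGFP-N1 replicates 2 and 3, with 0, 0.17 and 0.57 FPKM. The lowest value inside the threshold was thus 92.6 FPKM and the highest outside it was 0.57 FPKM.

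The split departed from the labels for 2 libraries. The library labelled pEGFP-N1 replicate 2 fell on the low side although its label names no inhibitor, and the library labelled BX795 plus pEGFP-N1 replicate 1 fell on the high side although its label names one. Each side therefore mixed both labels. Since the sides were chosen on a measured value, every comparison of high with low is a description of these 6 libraries, with no test.

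All libraries came from L929, an established mouse fibroblast line of strain C3H/An. Cells received the vehicle DMSO or 0.5 µM BX795 for 1 h, and the plasmid groups were then transfected with pEGFP-N1, a plasmid that expresses a fluorescent protein, for 6 h. The 4 labelled groups, with 3 libraries each, were mock (DMSO without plasmid), pEGFP-N1 (DMSO with plasmid), BX795 (inhibitor without plasmid) and BX795 plus pEGFP-N1 (both). Whether mock and BX795 cells received transfection reagent, and whether libraries of a group came from separate cultures, is not given in the sources used here, so the spread between libraries may be technical.

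DNA in the cytosol is bound by cGAS, whose product activates the adaptor STING. STING recruits the kinase TBK1, which BX795 inhibits, and this leads to transcription of type I interferon. Secreted interferon signals through its receptor, JAK kinases and a transcription factor complex that includes STAT2 and IRF9, which binds the interferon-stimulated response element and switches on a large antiviral programme. BX795 is also known to act on kinases other than TBK1.

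The table held 17571 genes. Summed over genes, FPKM came to 495030 to 503821 per library on the high side and 467348 to 513761 on the low side, and between 10166 and 10274 genes per plasmid library reached 1 FPKM. Read totals cannot be recovered from FPKM, and sequencing depth is therefore unknown. None of the 66 pairs of libraries held identical values. The fibroblast genes Vim and S100a4 averaged 1901 and 3956 FPKM on the high side and 1845 and 4381 FPKM on the low side, while the fibroblast markers Thy1 and Fap stayed below the filter. Of 5 fibroblast markers compared, 0 were higher and 3 were lower on the high side without overlap (Col1a1, Col1a2 and Pdgfrb, against 17.7% higher and 25.6% lower of all genes), with a median difference of -0.39 in log2(FPKM + 1). The part of this in the other results was not tested. Of 9 leukocyte markers only Cd68 passed the filter, at 135, 132 and 138 FPKM in the high libraries and 111, 126 and 116 FPKM in the low ones, and none of 5 endothelial or 5 epithelial markers did. Ptprc, which defines leukocytes, averaged 0.0033 FPKM on the high side and 0.0067 FPKM on the low side. The part of the Cd68 difference in the other results was not tested. BX795 plus pEGFP-N1 replicate 3 stood apart from the other 11 libraries. In it 28 genes lay below and 36 above all others and at least 1 on the log2 scale away from the other low libraries. The histone gene H2ac23 was listed at 0 there and between 47.4 and 99.8 FPKM elsewhere, and the ribosomal protein gene copy Rpl37rt was at 726 FPKM there and between 8.17 and 22.9 FPKM elsewhere. This library is called the odd library, and differences are given with and without it.

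The promoters of the genes that separated the sides most were searched for the core of the interferon-stimulated response element, spelled GAAA, any 2 bases, GAAA, on both strands. Windows ran from 250 bases before to 50 bases after each RefSeq start site on GRCm38.p6. The sequences below are shown because they belong to 4 of the genes with the widest separation. They read 5′ to 3′ along the gene, with each match in capitals. Overlapping matches form a single run, and TTTC, any 2 bases, TTTC is the same element on the other strand.
Ifit1: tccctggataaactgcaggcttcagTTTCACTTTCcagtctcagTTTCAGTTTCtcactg
Isg15: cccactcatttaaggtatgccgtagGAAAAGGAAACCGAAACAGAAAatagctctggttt
Cxcl10: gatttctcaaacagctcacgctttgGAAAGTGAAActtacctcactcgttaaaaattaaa
Rsad2: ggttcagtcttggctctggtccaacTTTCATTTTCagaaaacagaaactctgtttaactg

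The Ifit1 sequence lies at chr19:34640760-34640819 on the plus strand, and its first match begins at position -104 from the start site. Isg15 is shown at chr4:156200862-156200921 on the minus strand, with 3 matches of which the first begins at position -78. Cxcl10 has a match beginning at position -213 (chr5:92349068-92349127, minus strand), and Rsad2 a match beginning at position -120 (chr12:26456538-26456597, minus strand). Oasl1 and Oasl2 held no match to these letters in the window.

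A pair of chemokine genes that were lower on the high side held the kappaB motif, spelled GGGA, any base, TT, any base, CC and searched on both strands, which NF-kappaB proteins bind. Their sequences are shown because both genes lie in a cluster on chromosome 5 and were on the opposite side of the comparison.
Cxcl2: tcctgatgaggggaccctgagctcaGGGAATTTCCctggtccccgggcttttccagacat
Cxcl1: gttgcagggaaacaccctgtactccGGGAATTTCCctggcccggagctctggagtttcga

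The Cxcl2 match begins at position -97 (chr5:90903777-90903836, plus strand) and the Cxcl1 match at position -71 (chr5:90891149-90891208, plus strand). The capital letters are identical in both genes.

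Expression was compared as log2(FPKM + 1) over the 10274 genes that reached 1 FPKM in at least 3 of the 6 plasmid libraries. On this scale the difference of a gene with low FPKM is understated. A gene was called set apart where all 3 high values lay on one side of all 3 low values and the means differed by at least 1. Of the genes compared, 81 were set apart and higher on the high side (0.788%), and 31 were set apart and lower (0.302%). Non-overlap of any size was far more frequent, with 1823 genes higher (17.7%) and 2632 lower (25.6%), and the median difference over all genes was -0.04. Differences of at least 2 were found for 26 genes, all higher on the high side. Without the odd library, 80 genes were set apart and higher (0.785%) and 39 lower (0.383%), and 73 of the 81 and 26 of the 31 remained. Without pEGFP-N1 replicate 3, or without BX795 plus pEGFP-N1 replicate 1, 52 genes were set apart and higher, since the filter then needed a low library at 1 FPKM. These percentages were fixed by the same contrast that chose the sides. Of the 81 genes, 28 passed the filter on low values only through the high libraries and so had to differ. In these bulk samples, fewer responding cells and less RNA per responding cell cannot be told apart.

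**Figure D1:**
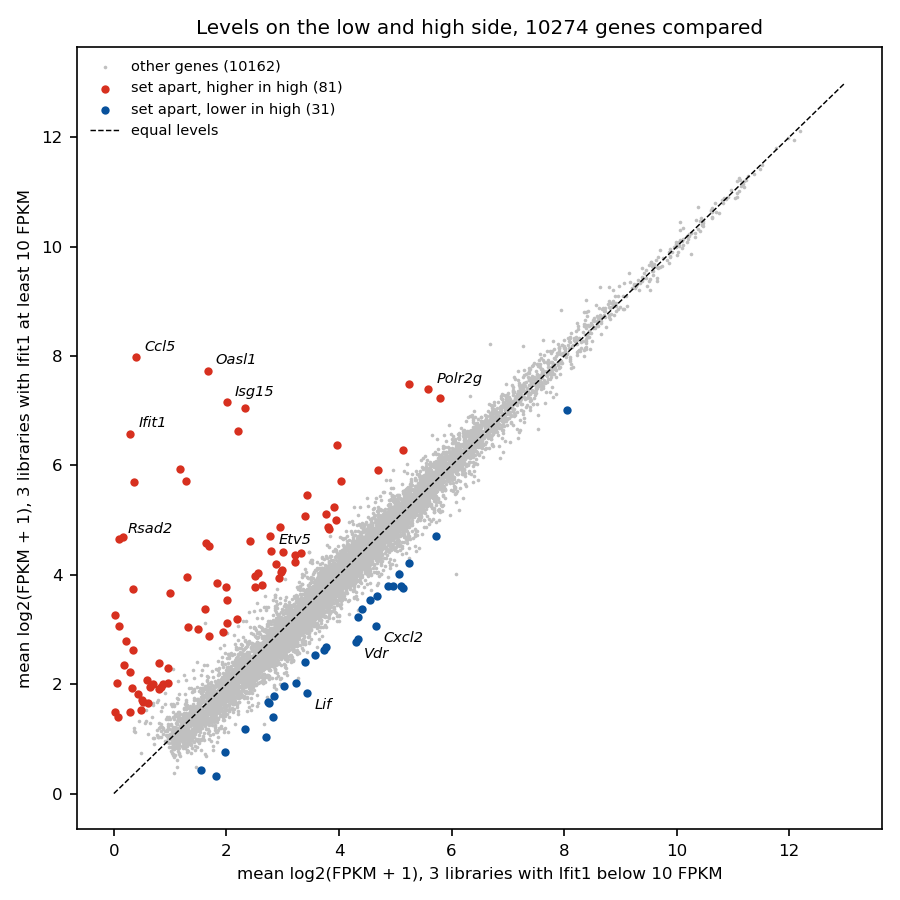
Mean log2(FPKM + 1) of the 3 low libraries (x axis) against the 3 high libraries (y axis) for 10274 genes, with the 81 genes set apart and higher on the high side and the 31 lower ones in colour. The coloured genes above the diagonal reach a difference of 7.59 for Ccl5, whereas those below it reach -1.68 for Cldn34c1.

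The genes separating the sides most were those of the interferon response, and the 3 high libraries were close to one another. Of 128 genes on 14 interferon-related lists that are in the table, 102 passed the filter. Of these, 34 were set apart and higher and 0 set apart and lower, and 64 were higher and 9 lower without overlap. Over all genes these shares were 0.788% and 0.302% set apart, and 17.7% and 25.6% without overlap. Their median difference was 0.49, against -0.04 over all genes. Of the 26 that missed the filter, 14 were higher on the high side without overlap, and the highest value among them was 1.32 FPKM. Without any of the 3 high libraries in turn, the 34 became 17, since the filter then needed a low library at 1 FPKM. Of the 102, 21 passed the filter only through the high libraries, and the other 81 held 17 of the 34. The lists were made with earlier results of these data known, and Ifit1 itself is among their genes.

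The IFIT family, whose members bind viral RNA, had 4 genes compared and set apart (against 0.788% of all genes). They include Ifit1, which defined the sides, and 3 of them passed the filter only through the high libraries, so that only Ifit2 could have failed to differ. Beside Ifit1, Ifit3 was at 26.6, 23.8 and 24.4 FPKM in pEGFP-N1 replicates 1 and 3 and BX795 plus pEGFP-N1 replicate 1. It was at 0.06, 0.13 and 0.19 FPKM in pEGFP-N1 replicate 2 and BX795 plus pEGFP-N1 replicates 2 and 3, a difference of 4.52. In all comparisons that follow, high values are given in the first order and low values in the second. Ifit2 had a higher floor, with 15.2, 15.2 and 13.8 FPKM on the high side, 4.80, 4.17 and 5.12 FPKM on the low side and a difference of 1.47. The difference was 3.23 for Ifit3b, whose promoter sequence is the same as that of Ifit3 over the bases compared. Their transcripts were not compared, so the division of reads between these copies is uncertain. Ifit1 differed by 6.29, and by 6.47 without the odd library.

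Among the 2′-5′ oligoadenylate synthetases and related genes, which respond to double-stranded RNA, 4 of 7 compared genes were set apart (against 0.788% of all genes). Of the 7, Oasl2, Oas3 and Oas1c passed the filter only through the high libraries and so could not overlap. Oasl1 (chr5:114923240-114937915, plus strand), an OAS-like protein without synthetase activity, was at 212, 208 and 214 FPKM in the high libraries. It was at 1.01, 1.61 and 5.08 FPKM in the low libraries, a difference of 6.07 (6.53 without the odd library). The high values spanned only a few FPKM, and the odd library was the highest of the low ones. The neighbouring Oasl2 had 51.9, 50.7 and 49.4 FPKM against 0.14, 0.15 and 0.63 FPKM, a difference of 5.33. Oas1a, a synthetase, was less wide apart, with 24.8, 22.8 and 23.1 FPKM against 4.62, 4.23 and 4.15 FPKM and a difference of 2.2. Oas1g differed by 1.73, Oas3 by 0.73 and Oas1c by 0.65. Oas2 stayed under 1 FPKM, with a highest value of 0.47 FPKM.

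A chemokine gene, Ccl5, gave the widest separation of all. Ccl5 (chr11:83525778-83530518, minus strand), which attracts T cells and monocytes, was at 253, 243 and 260 FPKM in the high libraries. It was at 0.21, 0.21 and 0.55 FPKM in the low libraries, and the difference of 7.59 was the largest of the 10274 genes. Cxcl10, which recruits activated lymphocytes, was at 133, 123 and 136 FPKM against 1.58, 5.68 and 6.47 FPKM, a difference of 4.70. The low libraries were not equal for Cxcl10, and all 3 lay above the 3 mock libraries at 0.31, 0.47 and 0.42 FPKM. The libraries labelled BX795 had 7.86, 0.90 and 1.85 FPKM of Cxcl10, so replicate 1 of that group was above every low library. The chemokine Ccl4, named after its values were seen, had 6.51, 7.23 and 8.52 FPKM against 0.09, 0 and 0.09 FPKM.

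Direct antiviral effectors and the ISG15 system followed the same division in part. Isg15, a ubiquitin-like modifier, had 152, 129 and 144 FPKM in the high libraries and 1.38, 3.39 and 5.15 FPKM in the low ones, a difference of 5.15. Usp18, which removes ISG15 from proteins, differed by 1.94, and Herc6, the ligase that attaches it in mouse cells, by 1.31. Both passed the filter only through the high libraries and so could not overlap. Ube2l6, the conjugating enzyme of the system, was instead lower on the high side, at 16.2, 15.8 and 15.3 FPKM against 16.6, 17 and 18.5 FPKM. Rsad2, which encodes viperin, was at 25.1, 23.2 and 24.2 FPKM against 0.02, 0.08 and 0.11 FPKM, a difference of 4.56. Rtp4 differed by 4.75, with 61.4, 59.2 and 59.6 FPKM against 0.86, 1.11 and 1.97 FPKM. Of the 11 effector genes compared, 8 were higher without overlap (against 17.7% of all genes) but only 3 were set apart. Of these 3, Rsad2 and Ifi44 passed the filter only through the high libraries and could not overlap. Eif2ak2, which encodes the kinase PKR, overlapped through the odd library, at 9.43, 9.30 and 9.02 FPKM against 7.65, 7.56 and 9.61 FPKM. The apolipoprotein L genes Apol9b and Apol9a differed by 4.44 and 4.42. Their promoter sequences, not shown, were the same over the bases compared. Reads may be shared between these genes, but their transcripts were not compared.

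**Figure D2:**
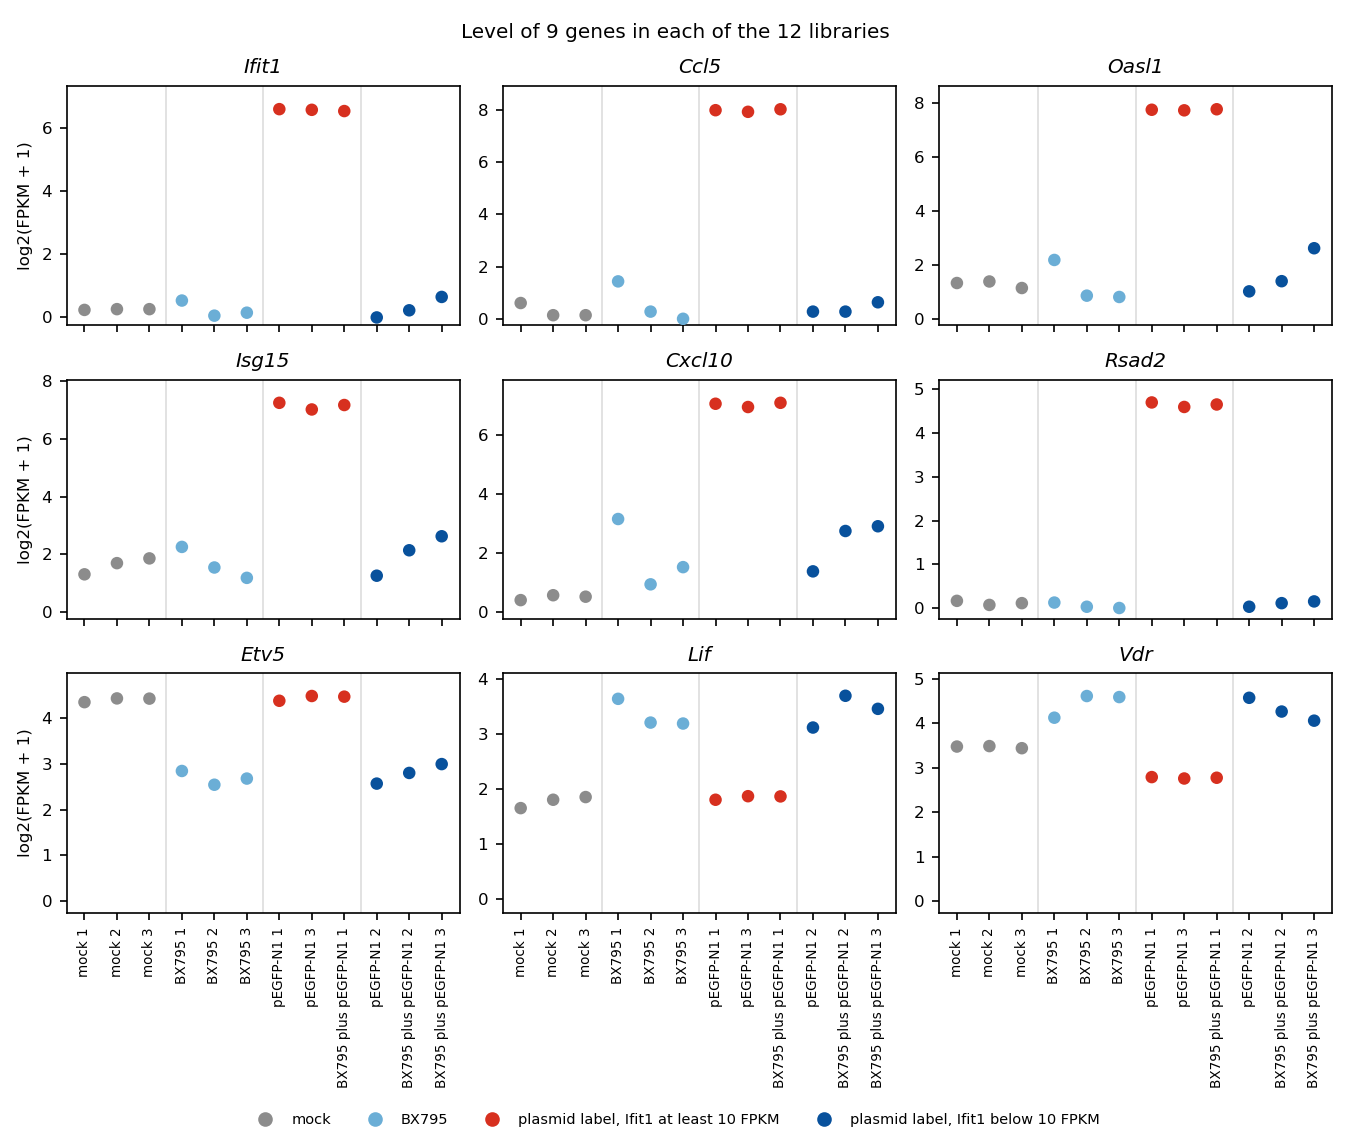
Expression of 9 genes as log2(FPKM + 1) (y axis) in each of the 12 libraries (x axis, by label), with high libraries, low libraries and libraries without plasmid label in different colours. For Ifit1, Ccl5 and Isg15 the 3 high libraries sit apart from the other 9, whereas for Etv5 the high libraries sit with mock and the low libraries with BX795.

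Sensors and signaling factors differed in part. Of 14 sensor and adaptor genes compared, 5 were set apart (against 0.788% of all genes). Of these 5, Ifih1 and Zbp1 passed the filter only through the high libraries and so had to differ. Ifih1 (MDA5), a sensor of long double-stranded RNA, was at 13.0, 12.5 and 11.4 FPKM against 0.25, 0.23 and 0.32 FPKM, a difference of 3.39. Dhx58 (LGP2) differed by 2.84 and Ddx58 (RIG-I) by 2.02. Zbp1, a sensor of left-handed nucleic acid, had 4.10, 3.54 and 4.79 FPKM against 0.23, 0.03 and 0.16 FPKM. Genes of the DNA-sensing route itself were not set apart. Tbk1 was at 20.2, 19.5 and 20.2 FPKM against 18.8, 19.2 and 21.2 FPKM, and Cgas at 2.72, 2.83 and 2.56 FPKM against 1.74, 2.11 and 2.64 FPKM. Both overlapped only through the odd library, and so did the RNA-route adaptor Mavs, while Sting1 overlapped with and without it. Of the factors downstream of the receptor, Stat2 differed by 1.41 and Irf9 by 1.10. Irf7, an interferon-induced regulator of interferon genes, was at 2.23, 2.07 and 2.18 FPKM against 1, 0.43 and 0.49 FPKM.

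The interferon gene and its receptors gave little separation. Ifnb1, which encodes interferon β, was at 0.08 FPKM in each high library and listed at 0 in each low library, below the filter. It was also listed at 0 in all mock libraries and in BX795 replicates 1 and 2, and at 0.16 FPKM in BX795 replicate 3, above every high library. None of 9 genes for ligands, receptors, JAKs and SOCS feedback was set apart, with 2 higher and 5 lower without overlap (against 17.7% and 25.6% of all genes). The receptor gene Ifnar1 was lower on the high side, at 9.13, 9.42 and 9.30 FPKM against 11.8, 10.5 and 12.5 FPKM. Its partner Ifnar2 was at 24.4, 27.5 and 25.6 FPKM against 30.4, 33 and 30.4 FPKM. Socs1, a feedback inhibitor of JAK signaling, was higher at 9.43, 10.4 and 10.6 FPKM against 6.32, 5.13 and 3.44 FPKM.

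Interferon-inducible GTPases, which act on pathogen vacuoles, had 15 genes in the table, of which 5 were compared and set apart (against 0.788% of all genes). Of these, 4 passed the filter only through the high libraries and so had to differ, which leaves Irgm1. It was the most abundant, at 26.2, 23.5 and 25.7 FPKM against 5.78, 5.22 and 6.67 FPKM. Gbp3 had the widest difference of the group, 2.30. Igtp and Irgm2 overlap on chromosome 11, so their reads cannot be fully told apart. TRIM ubiquitin ligases gave 3 of 7 set apart (Trim21 by 1.32, Trim30a by 1.11, Trim26 by 1.06), against 0.788% of all genes. Of the 7, 2 passed the filter only through the high libraries, Trim30a among them. The PML body genes Sp140 and Sp110, which are neighbours, differed by 1.18 and 1.11. The genes of MHC class I presentation were not set apart in any of 15 cases, with 2 higher and 3 lower without overlap (against 17.7% and 25.6% of all genes). Their median lay above the mock mean by 0.22 to 0.28 in the high libraries and by 0.20 to 0.40 in the low ones. With BX795 alone 11 of 14 tested rose and 0 fell (against 12.9% and 8.1% of all genes tested). B2m, the invariant class I chain, was lower on the high side at 581, 563 and 639 FPKM against 719, 642 and 868 FPKM. H2-T24 depended on the odd library, where it was at 15.6 FPKM against 0.88 and 0.52 FPKM in the other low libraries. Its difference was 0.56 with that library and 1.66 without it, but class I genes are similar in sequence and their read assignment is uncertain. Of 11 cell death genes, Mlkl, the executor of necroptosis, and Xaf1, an XIAP-associated factor, were set apart (against 0.788% of all genes). Xaf1 differed by 1.76 with and 2.42 without the odd library.

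Of the 81 genes, 41 were on no list. The following were named after their values were seen. Plat, which encodes tissue plasminogen activator, was at 12.52, 11.04 and 11.5 FPKM against 1.17, 0.81 and 1.02 FPKM, a difference of 2.67. Hdc, the enzyme that makes histamine, was at 6.43, 5.24 and 6.07 FPKM against 0.17, 0.12 and 0.20 FPKM. Polr2g, a subunit of RNA polymerase II, was the most abundant of these, at 174, 162 and 164 FPKM against 43.8, 49.7 and 48.2 FPKM, and its mock values of 52.5, 54.8 and 48.8 FPKM were near the low side. Its neighbour Zbtb3, 3978 bases away on chromosome 19, was set apart with a difference of 1.06. The transcription factor gene Sox9 differed by 1.47 and the alarmin gene Il33 by 1.33.

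**Figure D3:**
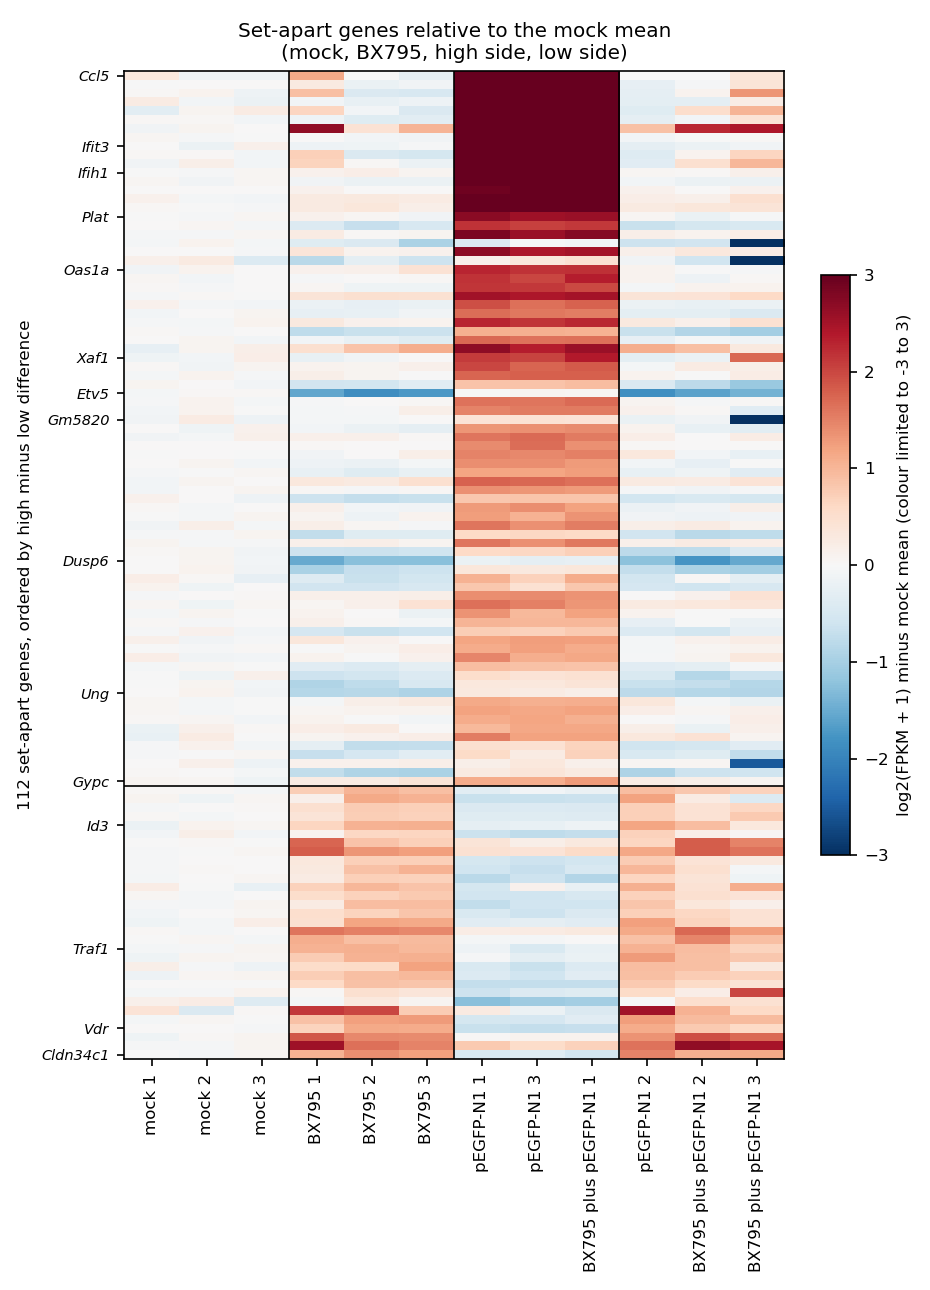
Difference from the mock mean in log2(FPKM + 1) (colour) for the 112 set-apart genes (vertical axis) in the 12 libraries (horizontal axis). The 3 high libraries form a block for the 81 genes higher on the high side, and the low libraries take the colour of the BX795 libraries for most of the 31 lower ones.

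Some set-apart genes were neighbours in the genome. Of 76 higher genes with coordinates, 22 had another such gene within 100000 bases, as did 2 of 28 lower ones, counts for which no background was computed. The interferon-list genes among the 22 were the IFIT genes on chromosome 19, Oas1a with Oas1g and Oasl1 with Oasl2 on chromosome 5, Igtp with Irgm2 on chromosome 11 and Sp110 with Sp140 on chromosome 1, together with Ccl5 beside Heatr9 on chromosome 11. The remaining pairs were Apol7a with Apol9a on chromosome 15, Polr2g with Zbtb3 on chromosome 19, Dok1 with Loxl3 on chromosome 6 and Ccrl2 with Rtp3 on chromosome 9. The pair of lower genes was Cxcl1 and Cxcl2, 10756 bases apart. Promoter windows were found for 58 of the 81 higher genes, and 24 of them (41.4%) held the interferon element. The same letters were found for 1 of 26 lower genes with a window (3.85%) and for 313 of 8314 compared genes with a window (3.76%). Among all 27025 genes with a window they were found for 1079 (3.99%). The kappaB letters were in 2 of 58 (3.45%), 3 of 26 (11.5%), 131 of 8314 (1.58%) and 372 of 27025 (1.38%), respectively. The pair of motifs was chosen with the genes known, and a match is a description of the letters only.

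The 3 high libraries resembled one another irrespective of label. Over the 81 genes, the median FPKM was 15.1 and 13.9 in pEGFP-N1 replicates 1 and 3 and 14.7 in BX795 plus pEGFP-N1 replicate 1. The median of the last minus the mean of the others was 0.02 on the log2 scale over these genes. Over all 10274 genes, BX795 plus pEGFP-N1 replicate 1 was at least 1 higher for 2 genes and at least 1 lower for 3 genes than the mean of the other high libraries.

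The low libraries differed more among themselves. The median FPKM over the 81 genes was 1.83 in pEGFP-N1 replicate 2, 2.09 in BX795 plus pEGFP-N1 replicate 2 and 2.36 in the odd library, against 1.52 to 1.65 in mock and 1.85 to 2.32 with BX795. The odd library was the highest of the low libraries for 38 of the 81 genes, pEGFP-N1 replicate 2 for 30 and BX795 plus pEGFP-N1 replicate 2 for 13. The mean of mock was nearer the low mean for 67 of the 81 genes and nearer the high mean for 14. All high values lay outside the range of the 6 libraries without plasmid label for 76 of them. Compared with BX795 plus pEGFP-N1 replicate 2 alone, pEGFP-N1 replicate 2 was at least 1 higher for 7 genes and at least 1 lower for 9.

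The label groups were then compared in the same 6 libraries, to see whether levels differed with the inhibitor as labelled. Each label group held libraries of both sides, which widens the spread within a group. A lack of calls therefore cannot show a lack of effect. With limma, BX795 plus pEGFP-N1 minus pEGFP-N1 gave 0 genes at an adjusted p under 0.05 (0.0% of 10274), 34 at an unadjusted p under 0.05, and between 13 and 412 unadjusted over the other settings. For Ifit1 the labelled difference was -1.92 with a standard error of 2.19 (limma adjusted p = 0.9998), so it was smaller than its error. The limma interaction, the inhibitor effect with plasmid minus that without, gave 0 of 10412 genes (0.0%) and 407 at an unadjusted p under 0.05.

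Inhibitor-response genes could be tested in the libraries that the split did not use. Between BX795 and mock, 1324 genes rose (12.9% of 10241) and 830 fell (8.1%) at a limma adjusted p under 0.05. The split between directions depended on the scaling, with 1021 higher and 1006 lower after quantile normalization. BX795 replicate 1 differed from replicates 2 and 3, and without it 2644 genes rose (26.0%) and 1762 fell (17.3%). Separate fits without any other library of the 6 gave 899 to 1134 calls in all, against 2154 with all 6. When all 12 libraries were fitted together, only 7 genes were called.

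Of the 31 genes that were lower on the high side, 29 rose with BX795 alone (93.5%, against 12.9% of all genes tested). Without BX795 replicate 1 there were 28 of 29 (96.6%, against 26.0% of all genes tested). In the other fits of 5 or 6 libraries there were 21 to 30, while 572 to 1423 genes rose in all. In the fit of all 12 libraries there were 0, while 4 genes rose in all. The cytokine gene Lif (chr11:4257557-4272514, plus strand) was at 2.49, 2.65 and 2.64 FPKM in the high libraries and 7.68, 11.96 and 9.99 FPKM in the low libraries. The mock libraries had 2.14, 2.49 and 2.61 FPKM and those with BX795 had 11.5, 8.24 and 8.13 FPKM, a rise of 1.58 (standard error 0.12, limma adjusted p = 9.9e-05). For Lif, high libraries were thus near mock and low libraries near BX795. The vitamin D receptor gene Vdr (chr15:97854425-97910630, minus strand) had 5.92, 5.77 and 5.85 FPKM against 22.8, 18.2 and 15.6 FPKM, and it rose by 0.97 with BX795 (standard error 0.11, limma adjusted p = 0.000727). Its high values were below mock at 10.1, 10.2 and 9.85 FPKM. Htra3, a secreted serine protease, and Fgf7, keratinocyte growth factor, had the same order, with differences of -1.52 and -1.32 between the sides and rises of 1.12 and 0.77 with BX795 (limma adjusted p = 0.00015 and 0.000196). The claudin-like genes Cldn34c1 and Cldn34c3 differed by -1.68 and -1.50 between the sides at low FPKM. Zbtb8b, a zinc finger gene, differed by -1.23. The 2 lower genes not among these 29 were Gm2046 and the gene with identifier 105246904, which has no symbol in the table used. The latter did rise without BX795 replicate 1, by 0.42 (limma adjusted p = 0.000285). It was at 73.5 FPKM in the odd library, and its difference of -1.39 between the sides became -0.85 without that library.

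Genes of the NF-kappaB pathway, which drives inflammatory transcription, were 6 of the 31 lower ones. Of 21 compared, 12 were lower and 4 higher on the high side without overlap (against 25.6% and 17.7% of all genes), with a median difference of -0.31. With BX795 alone 17 of 21 rose and 0 fell (against 12.9% and 8.1%). The inhibitor protein gene Nfkbie was at 5.04, 5.12 and 5.34 FPKM against 10.3, 15.9 and 11.3 FPKM, and it rose with BX795 by 1.52 (standard error 0.06, limma adjusted p = 1.4e-05). Traf1 differed by -1.15 and the deubiquitinase gene Tnfaip3 by -1.05. The chemokine gene Cxcl2, whose promoter is shown above, was at 8.03, 6.71 and 7.49 FPKM in the high libraries. It was at 15.3 FPKM in pEGFP-N1 replicate 2, and at 32.2 and 28.2 FPKM in BX795 plus pEGFP-N1 replicates 2 and 3. In the libraries labelled BX795 it was at 29.6 FPKM in replicate 1, and at 15.5 and 13.8 FPKM in replicates 2 and 3. The low libraries and the BX795 libraries thus each held a lower and a higher level of Cxcl2, and mock was at 4.11 to 4.59 FPKM. Cxcl1 had the same order, at 139, 118 and 129 FPKM against 164, 375 and 297 FPKM, and with BX795 at 353, 191 and 171 FPKM. Its difference of -1.03 became -0.94 without the odd library, so that it was then no longer set apart. Relb and Nfkbia entered the set-apart genes only without the odd library, at -1.01 and -1.05.

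The reverse pattern was seen in genes that fell with BX795. Of the 50 higher genes that could be tested, 20 fell with BX795 (40%, against 8.1% of all genes tested) and 5 rose (10%, against 12.9%). Without BX795 replicate 1 there were 24 and 9 (48% and 18%, against 17.3% and 26.0% of all genes tested). The feedback genes of the ERK kinase pathway, which relays growth factor signals, were among those that fell. Etv5 (chr16:22381309-22439719, minus strand), an ETS transcription factor, was at 19.8, 21.4 and 21.1 FPKM against 4.93, 5.97 and 6.97 FPKM. The mock libraries held 19.4, 20.6 and 20.5 FPKM and the BX795 libraries 6.18, 4.83 and 5.40 FPKM, a level that fell by 1.71 (standard error 0.08, limma adjusted p = 1.4e-05). The phosphatase genes Dusp6 and Dusp4 differed by 1.27 and 1.01 between the sides and fell by 1.34 and 0.86 with BX795. Of 18 ERK-list genes compared, 11 were higher and 1 lower on the high side without overlap (against 17.7% and 25.6% of all genes), and 12 fell and 2 rose with BX795. Mlkl, at 33.2, 33.7 and 33.8 FPKM against 12.4, 13.2 and 12.6 FPKM, fell by 0.67 with BX795 from 20.6, 18.8 and 16.6 FPKM in mock (limma adjusted p = 0.000593), so its high values were above mock and its low values below. Irf9 fell by 0.34, whereas Stat2, Ddx58 and Dhx58 rose by 0.36, 0.44 and 0.26 with BX795 alone.

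Some genes with the smallest adjusted p in this test were not set apart, yet their high and low values did not overlap. Socs3, a feedback inhibitor of cytokine signaling, was at 17.2, 15.1 and 16.1 FPKM against 10.6, 9 and 9.24 FPKM and fell by 0.88 with BX795 (limma adjusted p = 3.9e-05). The adaptor gene Sh2b3 was at 57.9, 58.7 and 59.3 FPKM against 33.6, 33.4 and 36.5 FPKM and fell by 0.92. Hmga2, a chromatin protein gene, differed by 0.94 with and 1.07 without the odd library and fell by 1.003. Unlike these genes, Tapbp, which loads peptides onto class I molecules, rose by 0.76 with BX795 and was also higher on the high side, at 80.9, 79.6 and 87.0 FPKM against 73.8, 69.6 and 64.4 FPKM, with mock at 38.8, 42.0 and 41.1 FPKM.

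**Figure D4:**
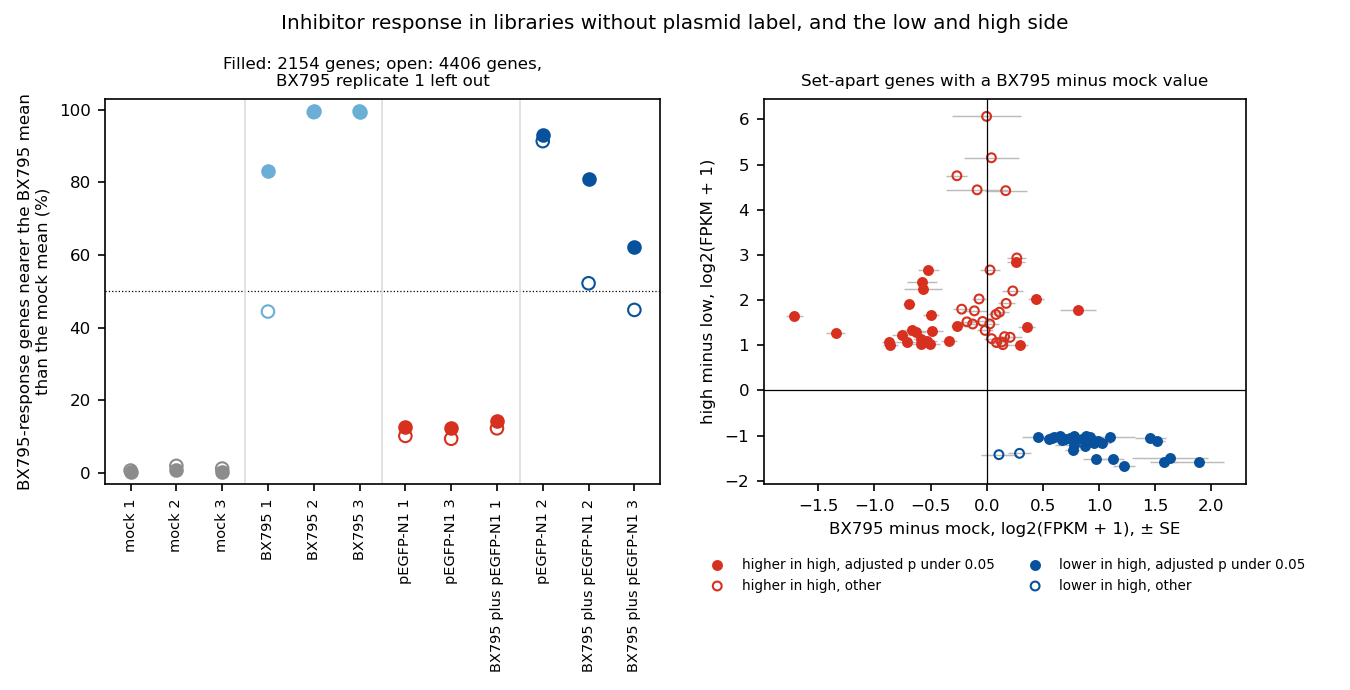
Left, share of BX795-response genes (%) whose value in a library was nearer the BX795 mean than the mock mean (y axis) in the 12 libraries, for 2154 genes (filled) and for 4406 genes defined without BX795 replicate 1 (open). The high libraries lie between 9.44% and 14.3% and pEGFP-N1 replicate 2 at 93.2% and 91.4%. Right, BX795 minus mock with its standard error (x axis) against high minus low (y axis), both in log2(FPKM + 1), for the set-apart genes tested in BX795 minus mock.

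Over the whole inhibitor response, the 2154 called genes placed the high libraries near mock. In pEGFP-N1 replicates 1 and 3 and BX795 plus pEGFP-N1 replicate 1, 12.6%, 12.3% and 14.3% of these genes were nearer the BX795 mean than the mock mean. In pEGFP-N1 replicate 2 the share was 93.2%, in BX795 plus pEGFP-N1 replicate 2 it was 80.8%, and in the odd library 62.1%. When the response was defined without BX795 replicate 1, the shares over 4406 genes were 91.4% in pEGFP-N1 replicate 2, 52.2% in BX795 plus pEGFP-N1 replicate 2, 44.9% in the odd library and 44.5% in BX795 replicate 1. The high libraries were then between 9.44% and 12.3%. Of the low libraries, the one whose label names no inhibitor thus had the largest share of genes near the BX795 mean, under both definitions.

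Pearson's r over 10412 genes, given as a description because genes share libraries and are not replicates, ordered the libraries alike. BX795 plus pEGFP-N1 replicate 1 was closest to pEGFP-N1 replicate 3 (r = 0.9972), and pEGFP-N1 replicate 2 was closest to BX795 replicate 2 (r = 0.9969). BX795 replicate 1 was closest to BX795 plus pEGFP-N1 replicate 2 (r = 0.9975). The odd library was closest to BX795 replicate 1, at r = 0.987. The closest library of each of these was the same over the 10232 genes left without the set-apart and interferon-list genes. Labels were used as deposited. Whether the labels of pEGFP-N1 replicate 2, BX795 plus pEGFP-N1 replicate 1 and BX795 replicate 1 were exchanged among these 3 libraries was not tested. The study also assayed GFP, Ifnb1, Cxcl10 and Isg15 mRNA by RT-qPCR on the sequenced samples, and those measurements, which bear on the labels, were not used here. The labelled comparisons, BX795 minus mock included, and the description of the low side as plasmid libraries hold only if these labels are right.

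Lists outside the interferon response gave small differences between the sides. Their counts are to be read against 25.6% of all genes lower and 17.7% higher without overlap, and against 12.9% that rose and 8.1% that fell with BX795. Of 18 genes of sterol and fatty acid metabolism, 14 were lower and 0 higher on the high side without overlap, with a median of -0.43, and 13 rose and 1 fell with BX795. Fdft1, which makes squalene, was at 12.5, 14.1 and 13.8 FPKM against 23.9, 23.1 and 20.7 FPKM. Of 16 mitotic genes 13 were lower without overlap, with a median of -0.41, and the same number rose with BX795. Ccnb2, a mitotic cyclin, had 52.4, 49.8 and 51.0 FPKM against 89.95, 81.3 and 75.5 FPKM. Genes of the G1/S transition went the other way, with 11 of 17 higher without overlap, a median of 0.25 and 11 that fell with BX795. Ccne1, a G1/S cyclin, was at 44.7, 44.6 and 44.1 FPKM against 24.04, 28.7 and 26.8 FPKM.

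Matrix genes were lower on the high side in 9 of 11 cases without overlap, with a median of -0.39, and 6 of 11 rose with BX795 while 1 fell. Col6a1, a collagen chain, was at 30.3, 30.7 and 31.9 FPKM against 55.4, 53.2 and 53.2 FPKM, with mock between them at 37.8, 39.3 and 37.9 FPKM. The platelet-derived growth factor receptor gene Pdgfrb was at 20.6, 21.4 and 22.2 FPKM against 41.2, 33.6 and 35.8 FPKM. Of 15 stress-response genes 9 were higher and 1 lower without overlap, and Chac1, a glutathione-degrading enzyme induced by stress, was set apart by 1.02. Of 14 FOXO and insulin pathway genes 9 were lower without overlap, of which the cyclin G2 gene Ccng2 was set apart by -1.09. Of 14 hypoxia and glycolysis genes, 6 were higher and 2 lower without overlap, and none was set apart. Reference genes gave 0 of 8 set apart, yet 4 were higher and 0 lower on the high side without overlap, and 0 of 8 were called with BX795. Ppia, a commonly used reference, overlapped at 2935, 2818 and 2909 FPKM against 3179, 3045 and 2634 FPKM, whereas Hprt was higher on the high side, at 108, 102 and 97.7 FPKM against 79.7, 97.0 and 89.8 FPKM.

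**Figure D5:**
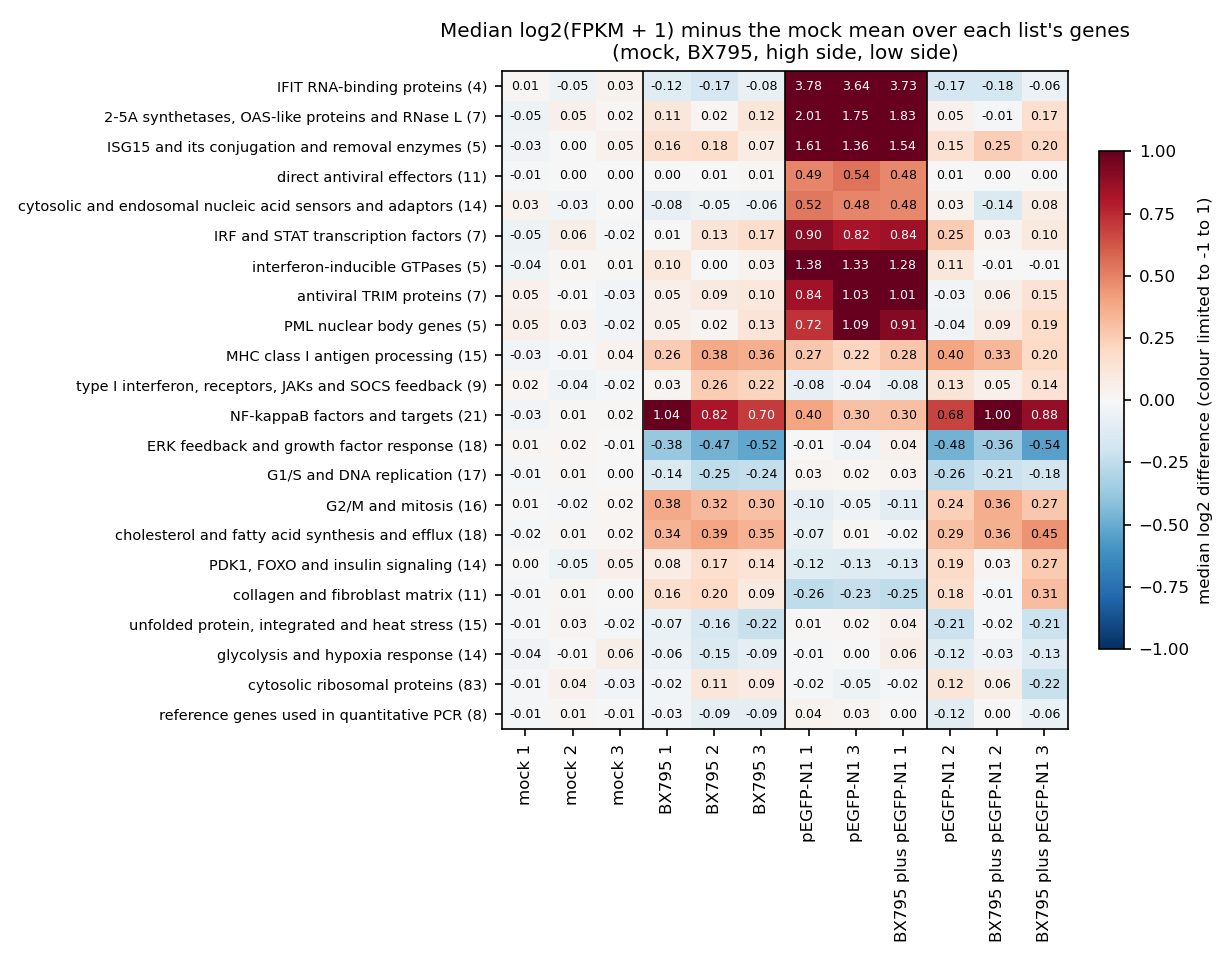
Median over the genes of each list of the difference from the mock mean in log2(FPKM + 1), printed and coloured, for each list (vertical axis) and each of the 12 libraries (horizontal axis). The IFIT list is at 3.64 to 3.78 in the 3 high libraries and between -0.18 and 0.03 in the other 9, whereas the sterol list is at 0.29 to 0.45 in the low and the BX795 libraries and at -0.07 to 0.01 in the high libraries.

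The odd library carried 4 of the 81 genes. H2ac23, a histone gene, was at 69.0, 90.5 and 86.8 FPKM in the high libraries and at 59.5, 61.6 and 0 FPKM in the low libraries, and its difference of 2.40 became 0.42 without the odd library. H2ac24 went from 2.24 to 0.66, Gm5820 from 1.53 to 0.58 and Tlcd5 from 1.01 to 0.15. The other 77 of the 81 genes and the 31 lower genes kept more than 50% of their difference.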

How the data were processed

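RNA of 12 L929 libraries was sequenced on a BGISEQ-500. The authors aligned reads to GRCm38.p5 with Bowtie2 2.2.5, estimated expression with RSEM, and deposited FPKM per gene rounded to 2 decimals. Columns were assigned by their labels. All 12 were used.

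Values were analysed as log2(FPKM + 1). Genes with at least 1 FPKM in at least 3 libraries of a comparison were kept. High and low plasmid libraries, split at an Ifit1 FPKM of 10, were described without a test. Labelled groups were compared with limma 3.58.1 in R 4.3.3 (empirical Bayes with a trend, Benjamini-Hochberg adjustment), checked on simulated data. The count test of the study cannot be run on FPKM. Named genes are the 10 largest differences in each direction among set-apart genes, up to 4 genes per list, the 10 smallest adjusted p per direction for BX795 minus mock, and Ifnb1, Cxcl10, Isg15 and the OAS list. Where a list had no set-apart gene, its most abundant member and the one with the widest difference were used. Other genes, including Eif2ak2, Tbk1, Cgas, Irf7, Ifnar1 and Ifnar2, were chosen after their values were seen. Symbols were found for 17450 of 17571 identifiers in RefSeq, and gene coordinates are from GENCODE M21. Some of the genes these rules name are not reported here. The members, the lists and the motifs were chosen with earlier results of these data known. Python 3.11.15 with pandas 2.3.3, numpy 2.4.6 and matplotlib 3.10.9 was used for the rest.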

Additional observations from a re-analysis of the deposited data

How the results depend on the processing

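The 81 and 31 set-apart genes (112 in all) depended most on the rule and the pseudocount. They were 1823 and 2632 (4455) for non-overlap of any size, 26 and 0 (26) for a difference of at least 2, 112 and 73 (185) with a pseudocount of 0.1, 114 and 82 (196) with 0.01, 53 and 22 for a mean of at least 5 FPKM, and 97 and 52 after rescaling to TPM. Leaving out a library gave 52 to 89 higher, 21 to 39 lower and 86 to 119 in all. An alternative chosen after seeing the data, without both libraries whose side departs from their label, gave 56 and 23. The 34 interferon-list genes became 20 for a mean of at least 5 FPKM and 19 in that alternative. Of 91 named genes, 69 to 91 had a value under each alternative and no difference between the sides was reversed, but 42 moved by more than the spread between libraries with a pseudocount of 0.01, 39 with 0.1 and 28 after rescaling to TPM.

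BX795 minus mock gave 2154 calls with limma, 1364 with no filter, 7 in a fit of all 12 libraries, 0 at a false discovery rate of 0.001 with a log2 change of 2, and 899 to 4406 when a library was left out. Of the 20 genes named for their smallest adjusted p in this comparison, 19 were no longer called in the fit of all 12 libraries and 1 was. BX795 plus pEGFP-N1 minus pEGFP-N1 gave 0 calls under every alternative, leaving out a library included. The interaction gave 1 call with no filter and 0 to 1 when a library was left out, the 1 being without BX795 plus pEGFP-N1 replicate 1, and 222 to 783 genes at an unadjusted p under 0.05.

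When the replicate number was fitted as a block, BX795 minus mock gave 2298 calls, and the labelled comparison within plasmid libraries and the interaction 0 each (121 and 612 at an unadjusted p under 0.05). The numbers were not taken as pairs, because same-numbered libraries had deviations that correlated between -0.389 and 0.635 across genes. Depth is unknown, so no counting error could be given, and genes under 1 FPKM were not compared.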
